A study of Homo sapiens with 12 samples.

Results

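The ID genes ID1, ID2, ID3 and ID4 were followed together with 6 genes of TGF-beta and BMP feedback in oral and skin keratinocytes exposed to H2O2. The feedback genes were the ligands TGFB1 and TGFB2, the inhibitory SMADs SMAD6 and SMAD7, the corepressor SKIL and the decoy receptor BAMBI. These 10 genes were taken by name from a table of raw read counts over 58735 genes, and all 10 were among the 16618 genes with enough counts to be tested.

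RNA-seq of polyadenylated RNA covered 4 groups of 3 libraries. TIGK is an immortalized line of gingival keratinocytes and HaCaT an immortalized line of skin keratinocytes, and each was left untreated or exposed to 5 mM H2O2 for 3 h. All 4 groups were kept in DermaLife K Keratinocyte Complete Medium and had reached full confluency before the exposure. Each cell type was represented by 1 line, so a difference between TIGK and HaCaT is a difference between these lines. The treatment field of the labels names H2O3 and H2O4 for replicates 2 and 3 of both treated groups, whereas the treatment protocol names H2O2 for every treated sample. Nothing in the labels says whether the 3 libraries of a group came from separate cultures, and p-values then measure only the spread between these samples, which may be technical. In bulk RNA, fewer cells of a type and less RNA per cell cannot be told apart.

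ID proteins are helix-loop-helix proteins without a DNA-binding region. They pair with the E proteins TCF3, TCF4 and TCF12 and keep these from binding DNA, and in keratinocytes they are known for holding back differentiation. BMP receptors act through SMAD1, SMAD5 and SMAD9, which bind ID gene enhancers directly, whereas TGF-beta and activin receptors act through SMAD2 and SMAD3, and SMAD4 serves both branches. The pathway limits itself through genes that it induces: SMAD7 and SMAD6 block the receptors, SKIL holds SMAD targets repressed, and BAMBI resembles a type I receptor that lacks the kinase.

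The sequences before the start sites are shown for the 7 genes that changed with H2O2 in at least 1 of the lines. They were taken from RefSeq promoters on GRCh38.p14, in which all 10 genes were found, and the start is that of RefSeq. From the 250 bases before it, only the part outside the exons that GENCODE gives the gene was kept. For ID2 and SKIL, where little was left, a stretch of 30 bases about 1 motif is shown, with exons not left out. The deposited counts place some starts elsewhere. By those coordinates the sequences of ID2 and ID3 lie within the gene, and those of SMAD6, SKIL and BAMBI reach into it. Each runs 5′ to 3′ on the strand of the gene, and capitals mark, on either strand, GTCTAGAC and CAGAC (SMAD sites), GGCGCC (a GC-rich site of SMAD1 and SMAD5), TGACGTCA and TGACG (the CREB site and its core) and GCGNGGGCG (the EGR site).
ID1 chr20:31605039-31605282 (+): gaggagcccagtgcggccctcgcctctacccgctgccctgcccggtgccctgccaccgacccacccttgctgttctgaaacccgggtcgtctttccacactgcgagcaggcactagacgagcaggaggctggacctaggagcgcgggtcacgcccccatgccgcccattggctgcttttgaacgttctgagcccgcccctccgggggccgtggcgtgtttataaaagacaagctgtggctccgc
ID2 chr2:8681912-8681941 (+): ccacgccccgCGCCCGCGCccaccaatgga
ID3 chr1:23559502-23559751 (−): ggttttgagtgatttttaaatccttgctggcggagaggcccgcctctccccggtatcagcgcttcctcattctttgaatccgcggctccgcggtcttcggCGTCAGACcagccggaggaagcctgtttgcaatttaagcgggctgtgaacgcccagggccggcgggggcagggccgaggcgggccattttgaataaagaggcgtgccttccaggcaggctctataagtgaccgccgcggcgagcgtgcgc
ID4 chr6:19837120-19837369 (+): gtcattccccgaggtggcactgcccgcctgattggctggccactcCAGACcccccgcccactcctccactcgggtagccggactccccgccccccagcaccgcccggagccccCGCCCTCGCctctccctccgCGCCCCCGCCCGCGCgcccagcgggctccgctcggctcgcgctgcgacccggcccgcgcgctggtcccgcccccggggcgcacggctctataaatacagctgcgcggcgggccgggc
SMAD6 chr15:66701986-66702235 (+): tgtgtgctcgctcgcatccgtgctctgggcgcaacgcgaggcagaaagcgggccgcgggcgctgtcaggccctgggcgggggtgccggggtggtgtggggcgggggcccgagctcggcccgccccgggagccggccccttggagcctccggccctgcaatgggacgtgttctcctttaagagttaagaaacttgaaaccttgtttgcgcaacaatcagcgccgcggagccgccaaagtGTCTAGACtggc
SKIL chr3:170357650-170357679 (+): cgaggactcggTGACGTCAgagggctgtgt
BAMBI chr10:28677271-28677509 (+): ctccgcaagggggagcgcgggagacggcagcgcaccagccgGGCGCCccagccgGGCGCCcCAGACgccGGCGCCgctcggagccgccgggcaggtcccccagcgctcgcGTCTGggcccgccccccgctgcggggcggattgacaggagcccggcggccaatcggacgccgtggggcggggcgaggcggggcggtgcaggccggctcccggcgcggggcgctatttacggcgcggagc

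The palindrome GTCTAGAC, which joins a pair of SMAD sites, was found before SMAD6 at positions −12 to −5 counted from the RefSeq start, and in 0.182% of all 35116 promoter windows of 250 bases. By the coordinates of the deposited counts, SMAD6 starts within this palindrome. Of the 10 genes, only SKIL held TGACGTCA, which 1.65% of all windows hold. GGCGCC stood at 3 places before BAMBI and at 1 before SKIL, against 16.4% of all windows with at least 1. The EGR letters were found before ID2, ID4, TGFB1 and SKIL, with 3 places in ID4, where 2 of them overlap, and in 8.41% of all windows. CAGAC was found before 6 of the 10 genes and in 38.0% of all windows, and TGACG, which TGACGTCA contains on each strand, before 3 and in 21.2%. A gene was counted if any of its windows held the letters, and SMAD7 has several windows, so counts of genes and percentages of windows are unlike measures. The AP-1 letters TGANTCA were found before none of the 10 genes and in 6.57% of all windows. ID1 held none of these letters. A match is a description of the letters in this window and not of a bound site.

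The depth was similar in all groups, with totals from 30426401 to 49034244 counts per library. The keratinocyte markers KRT5, KRT14, KRT15, TP63, CDH1, DSG3 and ITGB4 were all detected in every group. After H2O2, 2 of them rose and 2 fell in TIGK (10.2% and 12.9% of all tested genes), and 2 rose and 4 fell in HaCaT (18.9% and 15.2%). Summed normalized counts per library were 27.8 to 97.8 for melanocyte and 8.54 to 61.9 for endothelial markers. The endothelial VWF was higher in untreated HaCaT than in untreated TIGK (45.6 against 12.0, adjusted p = 0.00501). The summed counts of 4 leukocyte markers did not pass 6 in any library, and COL1A2, a defining fibroblast collagen, was at 0 in all 12. The other type I collagen chain, COL1A1, had means of 601 and 653 normalized counts in untreated and treated TIGK and 359 and 358 in HaCaT, lower in HaCaT both before and after H2O2 (adjusted p = 1.71e-05 and 3.07e-06), and made up most of the summed fibroblast markers. That sum was 603 to 713 in TIGK and 309 to 413 in HaCaT, and their part in the differences between the lines was not tested. Genes of the mitochondrial chromosome took a mean of 3.39% of the counts in untreated TIGK and 1.43% after H2O2, and 6.18% and 3.40% in HaCaT. The part of this shift in the results below was not tested beyond a fit without these genes. Counts below are normalized by the TMM method to the mean library size. Fold changes are log2 values of edgeR's quasi-likelihood fit, with standard errors (SE) derived from its F statistic. The p-values were adjusted by the Benjamini-Hochberg method across the 16618 tested genes. A gene is called changed at an adjusted p under 0.01.

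After H2O2, 3 of the 10 genes rose in TIGK (ID1, ID2 and SKIL) and 0 fell, where 23.2% of all tested genes were called, 10.2% up and 12.9% down. In HaCaT 6 rose (ID1, ID2, ID3, ID4, SMAD6 and BAMBI) and 0 fell, where 34.1% of all tested genes were called, 18.9% up and 15.2% down. The median log2 fold change of the 10 genes was 0.30 in TIGK and 0.74 in HaCaT, against 0.01 and 0.04 for all tested genes. The 10 genes were chosen with earlier results of these data known, so their counts and medians beside all tested genes are descriptions and no test. Before treatment 9 of the 10 differed between the lines, where 59.9% of all tested genes did. HaCaT had the higher counts for 5 (29.1% of all tested genes) and TIGK for 4 (30.8%). After H2O2, HaCaT was again higher for 5 of the 10 and TIGK for 4, with 60.0% of all tested genes called, 30.2% higher in HaCaT and 29.8% in TIGK. The responses themselves differed between the lines for 3 of the 10, against 5.30% of all tested genes. The value of TIGK minus HaCaT was above 0 for SKIL (2.32% of all tested genes) and below 0 for ID2 and BAMBI (2.98%).

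**Figure D1:**
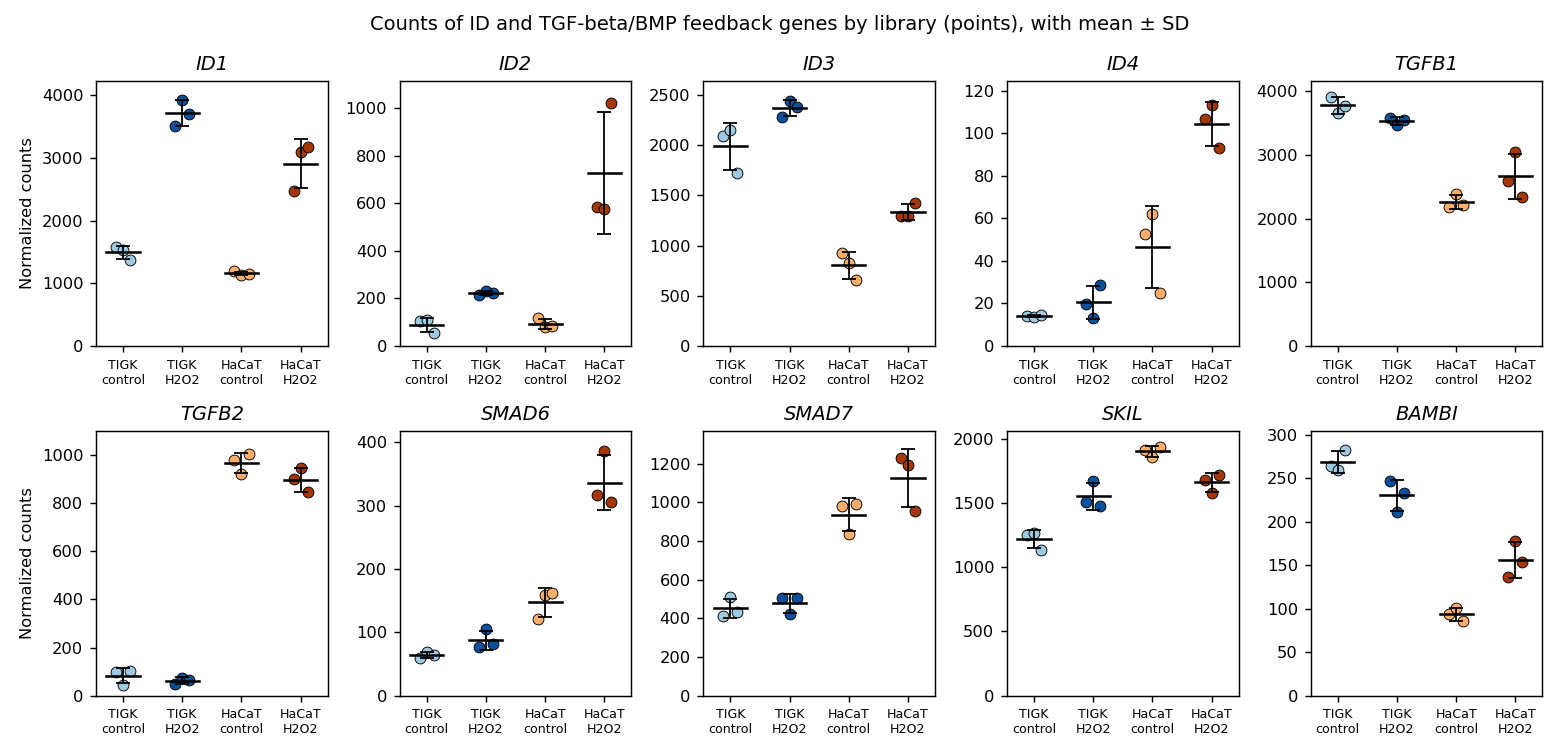
Normalized counts of each of the 10 genes on the y axis, with 1 panel per gene and the 4 groups on the x axis. Points are the 3 libraries of a group, and the line and bars give their mean ± SD. ID1 stood higher after H2O2 in both lines, ID2 reached its highest counts in treated HaCaT, and TGFB2 separated the lines in either treatment.

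ID1 (ENSG00000125968, chr20:31605283-31606515, plus strand on GRCh38) was the ID gene with the highest level in HaCaT and after H2O2 in both lines. Its normalized counts were 1584, 1525 and 1371 in the 3 untreated TIGK libraries and 3509, 3925 and 3703 after H2O2. In HaCaT they were 1189.8, 1131 and 1156 without and 2467, 3098 and 3169 with H2O2. Every treated library lay above every untreated library of either line. The log2 fold change was 1.31 in TIGK (SE 0.0837, adjusted p = 7.61e-10) and 1.33 in HaCaT (SE 0.0848, adjusted p = 9.19e-10). The difference of these responses was −0.01, with a 95% confidence interval of −0.26 to 0.23 (adjusted p = 0.972). TIGK held more ID1 than HaCaT, with a HaCaT over TIGK log2 difference of −0.36 before treatment (adjusted p = 0.000895) and −0.35 after it (adjusted p = 0.000823).

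ID2 (ENSG00000115738, chr2:8678845-8684453, plus strand) was scarce in both lines before treatment and rose most in HaCaT. Untreated TIGK had 104, 108 and 55.4 normalized counts and treated TIGK 215, 230.3 and 221, without overlap. Untreated HaCaT had 117, 78.5 and 83.9 and treated HaCaT 584, 574 and 1022, so that the lowest treated HaCaT library stood above all 9 libraries of the other groups and replicate 3 stood apart from the other 2. The log2 fold change was 1.32 in TIGK (SE 0.247, adjusted p = 0.000403) and 2.95 in HaCaT (SE 0.238, adjusted p = 2.15e-08). Without replicate 3 of treated HaCaT the latter was 2.62.

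The untreated lines did not separate for ID2, with a HaCaT over TIGK log2 difference of 0.08 (interval −0.47 to 0.63, adjusted p = 0.801). After H2O2 HaCaT held more, by 1.71 (SE 0.220, adjusted p = 1.16e-06). The response of TIGK was the smaller, with a log2 difference of the responses, TIGK minus HaCaT, of −1.63 (SE 0.342, adjusted p = 0.00426). This difference did not pass the limit when replicate 1 or 2 of untreated TIGK, any 1 of the 3 treated TIGK libraries, or replicate 2 or 3 of untreated HaCaT was left out. Its values then lay between −1.61 and −1.41, with adjusted p-values from 0.0121 to 0.0269. The antisense gene ID2-AS1, which overlaps ID2, had a mean of 1.58 counts per library.

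ID3 (ENSG00000117318, chr1:23557918-23559794, minus strand) was higher in TIGK and rose in HaCaT. TIGK libraries had 2091, 2153 and 1719.7 normalized counts before and 2284, 2444 and 2376 after H2O2. All 3 treated libraries were above the untreated ones, but by little, and the log2 fold change, 0.25 (interval 0.05 to 0.46), was not past the limit (adjusted p = 0.0536). HaCaT libraries had 932, 822 and 659.6 before and 1291, 1294 and 1424 after, and here the log2 fold change was 0.73 (SE 0.104, adjusted p = 1.96e-05). HaCaT stayed below TIGK, with a log2 difference of −1.30 before (adjusted p = 1.43e-09) and −0.83 after H2O2 (adjusted p = 6.01e-07), and no HaCaT library reached a TIGK library of either treatment. The difference of the responses, −0.48 (interval −0.78 to −0.18), was not past the limit (adjusted p = 0.0368), and it passed without replicate 3 of untreated TIGK, at −0.57 (adjusted p = 0.0092).

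ID4 (ENSG00000172201, chr6:19837386-19840684, plus strand) had few counts, from 13 to 36 raw reads in the 6 TIGK libraries, so counting error weighs more on it than on the other ID genes. Normalized counts in TIGK were 14.2, 13.5 and 14.6 before and 19.7, 13.3 and 28.5 after H2O2, with overlap and a log2 fold change of 0.55 (interval −0.31 to 1.41, adjusted p = 0.312). In HaCaT they were 52.7, 61.9 and 24.7 before and 107, 113 and 92.9 after, without overlap, and the log2 fold change was 1.17 (SE 0.329, adjusted p = 0.00713). This call was lost without replicate 2 of untreated TIGK, replicate 1 or 3 of untreated HaCaT or any 1 of the treated HaCaT libraries. The adjusted p then ran from 0.0109 to 0.0384, and the smallest value was 0.86, without replicate 3 of untreated HaCaT. HaCaT held more ID4 than TIGK, by 1.71 before (adjusted p = 0.000612) and 2.32 after H2O2 (adjusted p = 1.01e-05). An antisense gene over ID4, AL022068.1, had a mean of 4.42 counts per library, and its share in the ID4 counts was not tested.

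Per kilobase of gene length, the summed level of the 4 ID genes was higher after H2O2 in both lines and its make-up differed. In RPKM, which scales reads by gene length and library size, the sum was 65.1 ± 6.29 (SD, n = 3) in untreated TIGK and 122 ± 5.93 after H2O2, and 39.9 ± 2.85 and 95.8 ± 11.6 in HaCaT. Untreated TIGK held ID1 and ID3 at similar shares of this sum, 51.3% and 46.7%, and after H2O2 the shares were 67.8% and 29.7%. In HaCaT the share of ID1 was 65.0% before and 67.8% after, that of ID3 30.7% and 21.5%, and that of ID2 2.90% and 9.36%. ID4 made up at most 1.35% on average in any group. These shares are descriptions without a test.

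**Figure D2:**
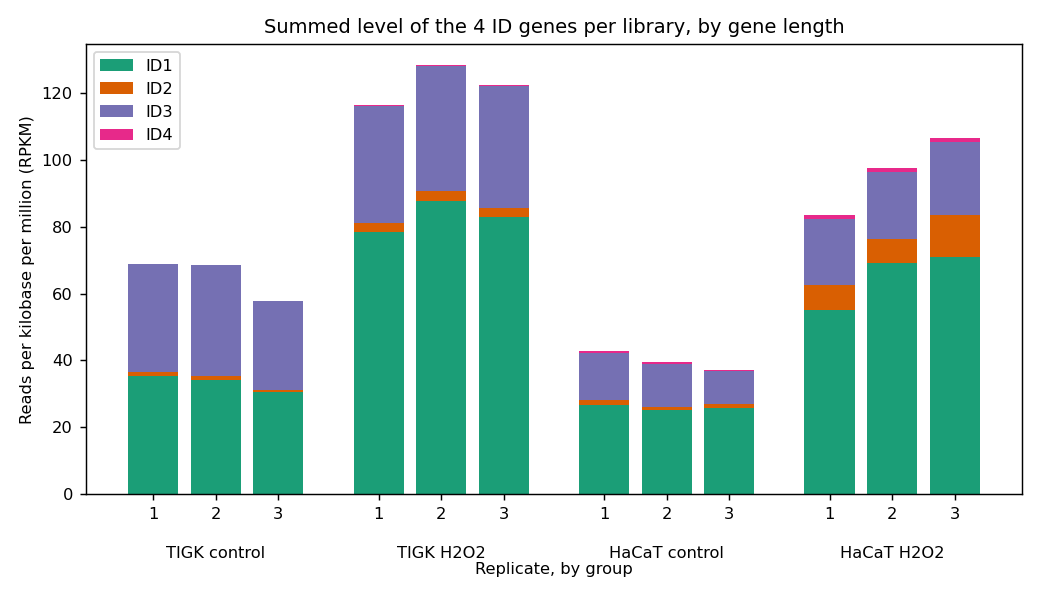
Stacked bars give, for each library on the x axis, the RPKM of ID1, ID2, ID3 and ID4 on the y axis. The sum is higher after H2O2 in both lines, ID3 holds a larger share in TIGK, and the share of ID2 is widest in treated HaCaT.

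TGFB1 (ENSG00000105329, chr19:41301587-41353911, minus strand), the most widely made TGF-beta ligand, was higher in TIGK than in HaCaT. Its normalized counts were 3909, 3651 and 3763 in untreated and 3580.0, 3462 and 3547 in treated TIGK, and 2184, 2388 and 2208 in untreated and 2596, 3046 and 2344 in treated HaCaT. No HaCaT library reached a TIGK library. The HaCaT over TIGK log2 difference was −0.74 before (SE 0.0745, adjusted p = 4.19e-08) and −0.41 after H2O2 (SE 0.0743, adjusted p = 7.58e-05). Neither response passed the limit, with a log2 fold change of −0.10 in TIGK (interval −0.25 to 0.06, adjusted p = 0.326) and 0.24 in HaCaT (interval 0.08 to 0.39, adjusted p = 0.0147). The treated HaCaT library with the lowest count, replicate 3, decided the latter: without it the value was 0.32 (adjusted p = 0.000697), and the difference of the responses went from −0.33 (adjusted p = 0.0454) to −0.42 (adjusted p = 0.0035). TGFB1 overlaps genes of the opposite strand, HNRNPUL1 with a mean of 9386 counts and CCDC97 with 1315, against 3047 for TGFB1. Whether the counting used strand is not given in the sources used here, and the TGFB1 values are uncertain to that extent.

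TGFB2 (ENSG00000092969, chr1:218346235-218444619, plus strand), which encodes a second TGF-beta ligand, was the gene of the 10 with the largest difference between the lines. Its normalized counts were 101, 46.7 and 105 in untreated and 47.6, 74.2 and 67.3 in treated TIGK, against 981, 923 and 1003 in untreated and 899, 946 and 846 in treated HaCaT. Every HaCaT library was above every TIGK library. HaCaT held 11.5 times the TGFB2 of TIGK before treatment (log2 difference 3.53, SE 0.184, adjusted p = 2.62e-12) and 14.0 times after it (log2 difference 3.81, SE 0.190, adjusted p = 1.35e-12). Neither response passed the limit, with −0.40 in TIGK (interval −0.86 to 0.07, adjusted p = 0.179) and −0.11 in HaCaT (interval −0.43 to 0.20, adjusted p = 0.572). In untreated TIGK replicate 2 was lower than the other 2 libraries, and without it the response of TIGK was −0.66 (adjusted p = 0.0056). Per kilobase, TGFB1 made up 98.6% of the sum of both ligands in untreated TIGK and 78.7% in untreated HaCaT, and 98.9% and 82.4% after H2O2.

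SMAD6 (ENSG00000137834, chr15:66702228-66782848, plus strand), the inhibitory SMAD that acts chiefly on BMP signalling, rose in HaCaT. Its normalized counts in HaCaT were 121, 159 and 162 before and 317, 386 and 306 after H2O2, without overlap, and the log2 fold change was 1.20 (SE 0.170, adjusted p = 1.81e-05). In TIGK they were 60.0, 68.4 and 64.8 before and 76.6, 105 and 81.6 after. The treated TIGK libraries were likewise all higher, yet the log2 fold change, 0.45 (interval 0.04 to 0.85), was not past the limit (adjusted p = 0.0817). The difference of the responses was −0.75 (interval −1.29 to −0.21, adjusted p = 0.0657). All 6 HaCaT libraries held more SMAD6 than any TIGK library, with a log2 difference of 1.19 before (adjusted p = 1.57e-05) and 1.94 after H2O2 (adjusted p = 1.11e-08).

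SMAD7 (ENSG00000101665, chr18:48919853-48952052, minus strand), which blocks TGF-beta and BMP receptors alike, differed between the lines and was not called in either response. Its normalized counts were 413, 508 and 435 in untreated and 507, 423 and 505 in treated TIGK, and 979, 836 and 992 in untreated and 1227, 1193 and 956 in treated HaCaT. Treated and untreated libraries overlapped in each line, whereas all HaCaT libraries lay above all TIGK libraries. The log2 fold change with H2O2 was 0.08 in TIGK (interval −0.16 to 0.33, adjusted p = 0.626) and 0.26 in HaCaT (interval 0.03 to 0.49, adjusted p = 0.0557), the latter being 0.37 without replicate 3 of treated HaCaT (adjusted p = 0.00872). HaCaT over TIGK was 1.05 before (SE 0.115, adjusted p = 1.25e-07) and 1.23 after H2O2 (SE 0.114, adjusted p = 1.23e-08). Of the summed RPKM of both inhibitory SMADs, SMAD7 took 92.2% in untreated TIGK, 90.2% in treated TIGK, 91.5% in untreated HaCaT and 85.0% in treated HaCaT.

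SKIL (ENSG00000136603, chr3:170357678-170396835, plus strand) encodes SnoN, a corepressor of SMAD target genes that is itself a TGF-beta target. Its responses had opposite signs in the lines, and its levels lay closer together after H2O2 than before. In TIGK it had 1249, 1265 and 1135 normalized counts before and 1505, 1669 and 1477 after H2O2, and all treated libraries were higher. The log2 fold change was 0.35 (SE 0.0692, adjusted p = 0.00066). In HaCaT it had 1910.4, 1853 and 1934 before and 1680.2, 1575 and 1719 after, and all treated libraries were lower. Here the log2 fold change was −0.20 and not past the limit (interval −0.34 to −0.05, adjusted p = 0.0244), but it passed without replicate 2 of treated TIGK, at −0.23 (adjusted p = 0.00997), and with upper quartile scaling, with DESeq2 and without mitochondrial genes. The difference of the responses was 0.55 (SE 0.0971, adjusted p = 0.0011) and passed under all 21 alternatives tried. HaCaT held more SKIL than TIGK before treatment, by 0.64 (adjusted p = 9.96e-08), and after it the difference of 0.10 was not past the limit (interval −0.05 to 0.24, adjusted p = 0.216).

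BAMBI (ENSG00000095739, chr10:28677342-28682939, plus strand) was higher in TIGK and rose in HaCaT. Its normalized counts in TIGK were 264, 259 and 283 before and 247, 211 and 233 after H2O2. The treated TIGK libraries lay below the untreated ones, with a log2 fold change of −0.22 that missed the limit (interval −0.52 to 0.07, adjusted p = 0.229). In HaCaT the counts were 94.0, 101 and 85.9 before and 137, 178 and 154 after, without overlap, and the log2 fold change was 0.74 (SE 0.155, adjusted p = 0.000726). HaCaT over TIGK was −1.52 before (SE 0.150, adjusted p = 3.17e-08) and −0.56 after H2O2 (SE 0.146, adjusted p = 0.00225), and the latter did not pass without replicate 1 of treated TIGK (−0.51, adjusted p = 0.0114).

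The responses of BAMBI differed by −0.97, TIGK minus HaCaT (SE 0.209, adjusted p = 0.0053). This did not pass when any 1 of the untreated TIGK libraries, replicate 2 or 3 of treated TIGK, replicate 1 or 3 of untreated HaCaT or replicate 2 of treated HaCaT was left out. The value then lay between −0.98 and −0.84, with adjusted p-values from 0.0115 to 0.0273.

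**Figure D3:**
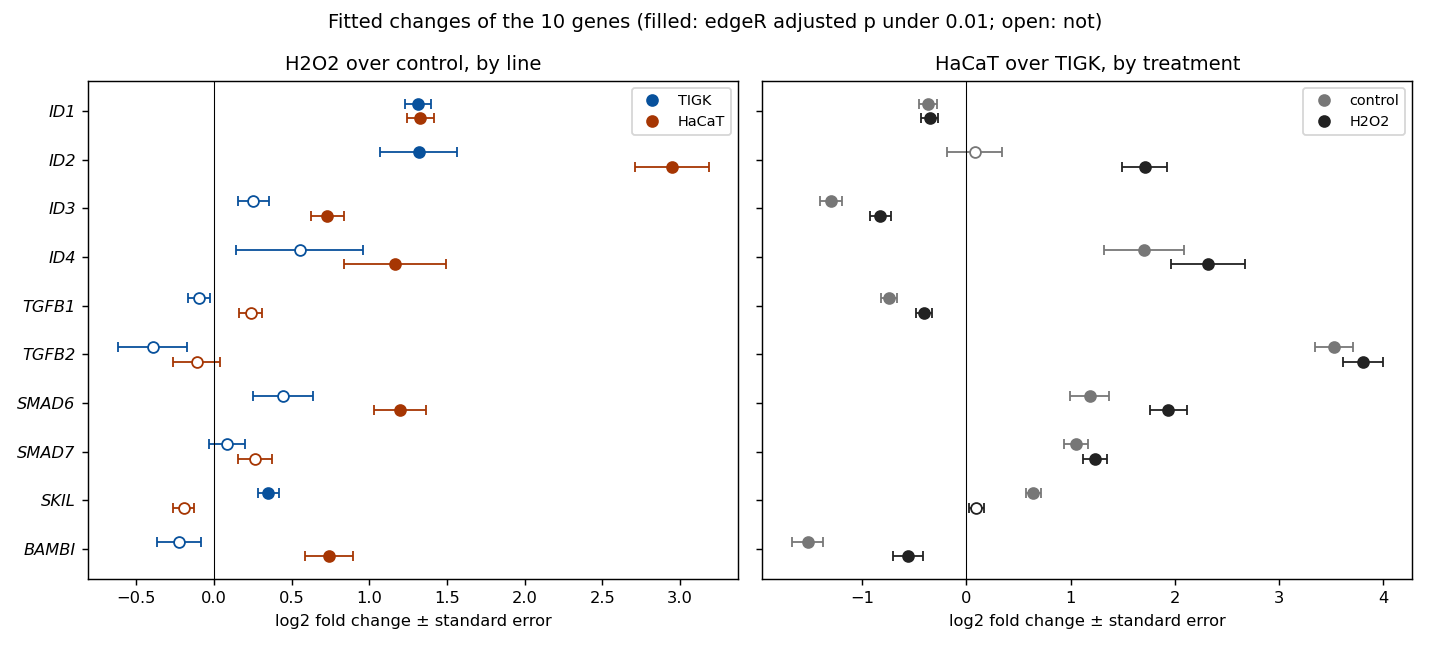
Fitted log2 fold changes (x axis, bars are standard errors) of the 10 genes (y axis), with H2O2 over control in each line on the left and HaCaT over TIGK in each treatment on the right. Filled points passed an adjusted p of 0.01 and open points did not. ID2 lies furthest to the right among the responses, and SKIL is the gene that rose in TIGK and lay below 0 in HaCaT.

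Ordered by level per length, the genes of untreated TIGK fell into a high and a low set. ID1 at 33.4 ± 2.46 RPKM, TGFB1 at 32.1 ± 1.10 and ID3 at 30.5 ± 3.59 did not differ beyond their spread (SD, n = 3). SKIL followed at 4.30 ± 0.250, BAMBI at 3.20 ± 0.151, SMAD7 at 2.47 ± 0.273, ID2 at 1.11 ± 0.364 and TGFB2 at 0.449 ± 0.173. The lowest levels in TIGK were those of SMAD6 at 0.207 ± 0.0136 and ID4 at 0.166 ± 0.00690. In untreated HaCaT, ID1 led at 25.9 ± 0.663 RPKM, ahead of TGFB1 at 19.2 ± 0.950 and ID3 at 12.3 ± 2.10. SKIL at 6.72 ± 0.147 stood above TGFB2 at 5.18 ± 0.222 and SMAD7 at 5.12 ± 0.476, which did not differ beyond their spread. Neither did ID2 at 1.16 ± 0.260 and BAMBI at 1.11 ± 0.0874, nor ID4 at 0.546 ± 0.228 and SMAD6 at 0.474 ± 0.0741. After H2O2, ID1 reached 82.9 ± 4.65 RPKM in TIGK and 65.0 ± 8.63 in HaCaT, ahead of the other 9 genes in both lines. ID3 at 36.3 ± 1.23 RPKM followed in TIGK, above TGFB1. In treated HaCaT, TGFB1 at 22.6 ± 3.02 and ID3 at 20.5 ± 1.17 did not differ beyond their spread. Nor did ID2, at 9.07 ± 3.19, and SKIL, at 5.87 ± 0.263, although the lowest ID2 library, at 7.17, was above the SKIL mean. Treated TIGK held ID2 at 2.77 ± 0.0984, below SKIL at 5.49 ± 0.368.

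The other genes of the pathway were taken from 8 lists by role, likewise chosen with earlier results of these data known, in which 77 of 93 genes were tested. In TIGK 9 rose and 25 fell after H2O2, where 10.2% of all tested genes rose and 12.9% fell. In HaCaT 15 rose and 25 fell, where 18.9% of all tested genes rose and 15.2% fell. The medians were −0.14 in TIGK and 0.00 in HaCaT on the log2 scale, against 0.01 and 0.04 for all tested genes. Between the untreated lines 36 were higher in HaCaT and 27 in TIGK (29.1% and 30.8% of all tested genes). After H2O2 34 were higher in HaCaT and 30 in TIGK (30.2% and 29.8%), and the responses differed for 18 (5.30%). Changes and differences given below with the word by are log2 values.

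Of 14 TGF-beta and activin ligands and activators tested, 1 rose and 5 fell in TIGK (10.2% and 12.9% of all tested genes) and 0 rose and 6 fell in HaCaT (18.9% and 15.2%), with median log2 fold changes of −0.20 and −0.25. INHBA, the activin A subunit, fell in HaCaT from 17128 ± 1128 to 7464 ± 679 normalized counts (log2 fold change −1.20, adjusted p = 2.34e-10), and in TIGK by 0.27 (adjusted p = 0.00527). In TIGK the latent TGF-beta binding protein LTBP2 went from 2589 ± 16.1 to 1654 ± 103 (log2 fold change −0.65, adjusted p = 3.91e-07), and it fell in HaCaT by 0.50 (adjusted p = 6.64e-06). ITGB6, part of the integrin that releases latent TGF-beta, rose in TIGK from 1174 ± 31.5 to 1408 ± 32.4 normalized counts (log2 fold change 0.26, adjusted p = 0.00264). In HaCaT it fell, from 2575 ± 13.7 to 1414 ± 73.1 (log2 fold change −0.86, adjusted p = 3.12e-09), and the responses differed by 1.13 (adjusted p = 8.31e-08). ITGB8, of a related integrin, was higher in untreated HaCaT than TIGK, by 1.64 (adjusted p = 2.67e-12), and fell in both, by 0.64 in TIGK (adjusted p = 1.83e-05) and 1.01 in HaCaT (adjusted p = 2.73e-08). GDF15, a stress-induced ligand of the family, had 72.0 ± 9.86 counts in untreated TIGK, while its raw counts in untreated HaCaT were 0 to 2.

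Of the 5 BMP ligands tested, 0 rose and 1 fell in TIGK (10.2% and 12.9% of all tested genes), and 2 rose and 2 fell in HaCaT (18.9% and 15.2%), with medians of 0.05 and −0.09. BMP6 fell in both lines, from 224 ± 29.9 to 67.2 ± 13.0 normalized counts in TIGK (log2 fold change −1.72, adjusted p = 3.14e-08) and from 2371 ± 113 to 495 ± 43.8 in HaCaT (log2 fold change −2.26, adjusted p = 9.47e-12). The lines also differed in BMP6 before treatment, by 3.41 in favour of HaCaT (adjusted p = 3.32e-15). BMP4 rose in HaCaT by 0.56 (adjusted p = 0.000809). In TIGK it had 135 ± 13.3 normalized counts before and 162 ± 22.4 after H2O2, and it was not called. BMP8B was lower in untreated HaCaT than TIGK by a log2 difference of −4.46 (adjusted p = 4.88e-13), and it overlaps PPIE on the opposite strand.

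Of the 12 receptors tested, 0 rose and 3 fell in TIGK, where 23.2% of all tested genes were called, and 1 rose and 3 fell in HaCaT, where 34.1% were. The medians were −0.21 in both lines, and the shares called are near those of all tested genes. TGFBR1, the type I TGF-beta receptor, fell in TIGK from 2853 ± 168 to 1683 ± 111 normalized counts (log2 fold change −0.76, adjusted p = 1.58e-07), and in HaCaT by 0.31 (adjusted p = 0.0013). The coreceptor TGFBR3 rose in HaCaT by 0.96 (adjusted p = 9.7e-05). ACVR2A, an activin and BMP type II receptor, fell by 0.54 there (adjusted p = 0.00434), and it overlaps ORC4 on the opposite strand. Before treatment TGFBR2 was higher in HaCaT by 1.14 (adjusted p = 3.75e-13) and the coreceptor ENG was lower, with a log2 difference of −3.12 (adjusted p = 7.07e-12).

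Of the 6 receptor SMADs and SMAD4, 0 rose and 1 fell in TIGK (10.2% and 12.9% of all tested genes), and 1 rose and 2 fell in HaCaT (18.9% and 15.2%). SMAD5 fell in both lines, with a log2 fold change of −0.38 in TIGK (adjusted p = 0.00018) and −0.28 in HaCaT (adjusted p = 0.00212). SMAD3 fell in HaCaT from 6509 ± 185 to 4414 ± 235 normalized counts (log2 fold change −0.56, adjusted p = 2.13e-07). In TIGK it had 3332 ± 78.1 and 3603 ± 148 (log2 fold change 0.11, adjusted p = 0.115), and the responses differed by 0.67 (adjusted p = 1.23e-05). SMAD1, of the BMP branch, rose in HaCaT by 0.38 (adjusted p = 0.00803), and its value in TIGK was 0.24 (adjusted p = 0.105). SMAD2 and SMAD4 were not called in either response. SMAD9 was not called either, at −0.33 in TIGK (adjusted p = 0.288) and −0.95 in HaCaT (adjusted p = 0.0245). Untreated HaCaT held more SMAD2, SMAD3 and SMAD4 than TIGK, by 0.87, 0.97 and 1.12, and less SMAD9, with a log2 difference of −2.53 (adjusted p-values 3.12e-11, 9.28e-12, 2.8e-11 and 6.35e-08).

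Of the 8 extracellular antagonists tested, 1 rose and 3 fell in TIGK (10.2% and 12.9% of all tested genes), and 2 rose and 2 fell in HaCaT (18.9% and 15.2%), with medians of −0.09 and 0.19. NOG, which encodes the BMP trap noggin, rose in TIGK from 28.1 ± 14.4 to 83.4 ± 9.98 normalized counts (log2 fold change 1.56, adjusted p = 0.000624), and before treatment it was higher in HaCaT by 2.49 (adjusted p = 4.08e-07). FST, which encodes the activin trap follistatin, fell in TIGK from 6494 ± 590.1 to 2003 ± 162 (log2 fold change −1.70, adjusted p = 1.92e-12) and in HaCaT from 33926 ± 1961 to 20780.3 ± 205 (log2 fold change −0.71, adjusted p = 2.02e-07). Its relative FSTL3 rose in HaCaT by 0.49 (adjusted p = 8.65e-06). DCN, the proteoglycan decorin, had 197 ± 40.6 counts in untreated TIGK and 4.91 ± 2.55 in untreated HaCaT (adjusted p = 7.14e-11), where its raw counts were 2 to 8.

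Of the 12 intracellular inhibitors other than SMAD6, SMAD7 and SKIL, 1 rose and 7 fell in TIGK (10.2% and 12.9% of all tested genes), and 3 rose and 5 fell in HaCaT (18.9% and 15.2%), with medians of −0.27 and −0.11. TGIF1, a corepressor of SMAD2 and SMAD3, rose in TIGK from 1571 ± 53.2 to 5744 ± 258 normalized counts (log2 fold change 1.87, adjusted p = 2.35e-12) and in HaCaT from 877 ± 113 to 2214 ± 182 (log2 fold change 1.34, adjusted p = 5.86e-10). SKI, the close relative of SKIL, fell by 0.77 in TIGK (adjusted p = 6.15e-07), where SKIL rose, and by 0.55 in HaCaT (adjusted p = 2.74e-05). The ubiquitin ligase SMURF1 fell by 0.73 in HaCaT (adjusted p = 1.82e-07), and it overlaps TRRAP on the opposite strand. Between the untreated lines PMEPA1, a TGF-beta target that holds back SMAD signals, was higher in HaCaT by 3.08 (adjusted p = 1.09e-17) and TGIF2 was lower, with a log2 difference of −1.34 (adjusted p = 5.69e-12).

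Of the 17 target genes tested, 4 rose and 5 fell in TIGK (10.2% and 12.9% of all tested genes), and 4 rose and 5 fell in HaCaT (18.9% and 15.2%), with medians of −0.11 and 0.19. CTGF, which encodes a matricellular protein, rose in TIGK by 4.93 (adjusted p = 1.23e-18) and in HaCaT by 1.20 (adjusted p = 1.21e-09). SNAI1, the transcription factor Snail, rose in HaCaT from 3.97 ± 4.49 to 50.5 ± 14.8 (log2 fold change 3.71, adjusted p = 7.47e-06), from raw counts of 0 to 8 in the untreated libraries. Untreated HaCaT held more MMP2 than TIGK, by 1.95 (adjusted p = 1.91e-13), and less MSX1, a target of BMP signals, with 3.55 ± 1.12 normalized counts against 97.5 ± 11.1 in TIGK (adjusted p = 4.19e-09).

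Of the 3 E proteins that ID proteins bind, 2 rose and 0 fell in each line, where 10.2% of all tested genes rose in TIGK and 18.9% in HaCaT. TCF4 rose by 0.69 in TIGK (adjusted p = 0.00124) and by 0.59 in HaCaT (adjusted p = 0.00096), and TCF12 by 0.63 (adjusted p = 4.72e-07) and 0.41 (adjusted p = 3.9e-05). TCF3 was at −0.10 in TIGK (interval −0.23 to 0.03, adjusted p = 0.226) and 0.03 in HaCaT (interval −0.10 to 0.16, adjusted p = 0.758). All 3 E proteins were higher in HaCaT before treatment, by 0.76 for TCF3, 1.94 for TCF4 and 0.89 for TCF12 (adjusted p-values 1.93e-09, 4.37e-10 and 3.28e-10).

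**Figure D4:**
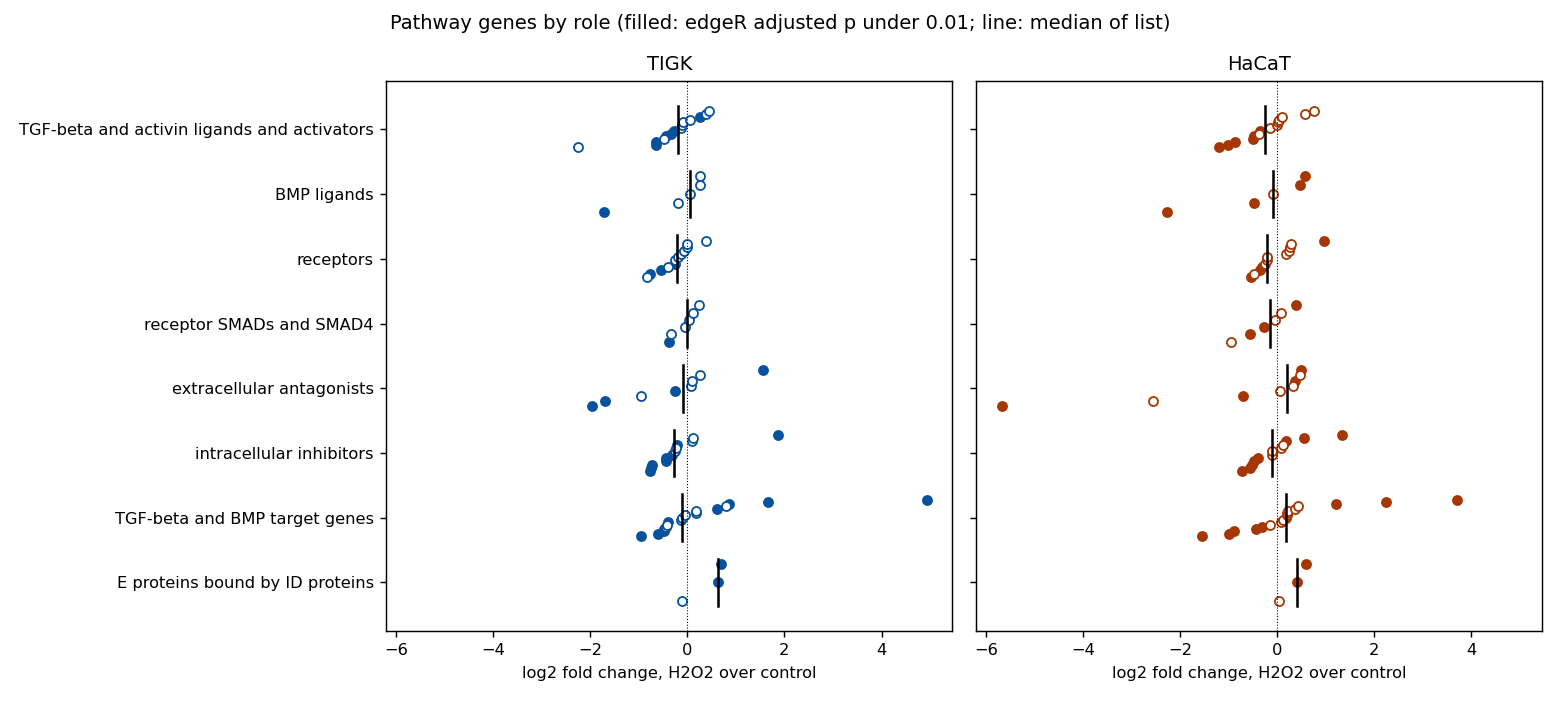
Fitted log2 fold changes with H2O2 (x axis) of the tested genes of the 8 pathway lists (y axis), in TIGK on the left and HaCaT on the right, with filled points past an adjusted p of 0.01 and a line at the median of each list. The median lies below 0 in both lines for TGF-beta and activin ligands and activators, receptors, receptor SMADs and intracellular inhibitors, and the lowest point in HaCaT is GREM1, at 0 counts in all 3 treated libraries, whose fitted value is no bound.

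The genes whose pattern over the 12 libraries was most like that of a member were ranked by Pearson's r of log2 CPM among 11772 genes. For ID1 they were DUSP2 (r = 0.989), SPAG5 (r = 0.988) and HSP90AA1 (r = 0.988). For ID2 they were SNAPC1 (r = 0.976), SAT1 (r = 0.975) and NFYB (r = 0.973). For ID3 they were C5orf15 (r = 0.988), RTN3 (r = 0.986) and CIART (r = 0.985), and for SMAD7 TNFAIP8L1 (r = 0.988), PIK3R4 (r = 0.987) and HPS3 (r = 0.986). The 12 libraries share 2 lines and 2 treatments, and these values describe the pattern over the 4 groups.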

How the data were processed

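RNA-seq libraries of TIGK and HaCaT, untreated or after 5 mM H2O2 for 3 h, were grouped by their labels, with 3 libraries in each of 4 groups. The authors deposited raw read counts per gene for 58735 genes on GRCh38, without normalization, and the paper names Hisat2 2.0.5, StringTie 1.3.3b and featureCounts 1.5.0-p3. The submitters' labels name Hisat2 2.0.0. The annotation release and the use of strand in counting are not given in the sources used here. The deposited log2 fold changes and adjusted p-values of the authors' own comparisons were not used. There were 0 lines without a gene.

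The 16618 genes whose raw counts averaged 10 or more were tested with edgeR 4.0.16 in R 4.3.3. A single quasi-likelihood fit covered all 12 libraries, with TMM factors of 0.962 to 1.04, 1 mean per group and 5 contrasts. Benjamini-Hochberg adjustment was over all genes tested, with a limit of 0.01. The count filter, this adjustment and the limit are those of the study, which tested with DESeq2 and not edgeR. Log2 CPM used a prior count of 2. RPKM used the deposited gene lengths. The script was tested on simulated counts. Alternatives were DESeq2 1.42.0, fits on the compared groups alone, other scalings, filters and limits, a block on the replicate number and leaving out each library in turn. Between replicates, chi-square values of 4.45 to 28.2 per degree of freedom (12 pairs) exceeded the 1 that counting alone gives. The highest, 28.2 and 18.9, were both pairs with replicate 3 of treated HaCaT. Next came 15.3 and 11.9, both pairs with replicate 3 of untreated TIGK. Library totals of 30426401 to 49034244 counts make the spread between replicates the main limit on precision for genes with many counts. Plots were made in matplotlib 3.10.9 (Python 3.11.15).

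The 10 genes and the pathway lists, written from general knowledge, were chosen with earlier results of these data known. In each pathway list, genes were first kept if they were past the limit and their libraries did not overlap. The group with more counts also had to average 50 normalized counts or more. Of the genes kept, the one that rose most and the one that fell most in each response were named. The same was done between the untreated lines. Genes that were not kept can have larger fold changes than those named. The receptor SMADs, SMAD4, the E proteins and CTGF were named whatever their values. Another gene that the rule names is not reported here. Genes most alike were taken among those with a mean of at least 100 normalized counts.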

Additional observations from a re-analysis of the deposited data

Results flagged for a closer look

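The responses of 3 genes to H2O2 differed between TIGK and HaCaT by the test of the difference itself (edgeR's quasi-likelihood test, Benjamini-Hochberg adjusted). For ID2 the difference of the log2 fold changes, TIGK minus HaCaT, was −1.63 (adjusted p = 0.00426), with a rise in all 3 treated libraries of both lines. For SKIL it was 0.55 (adjusted p = 0.0011), with all treated libraries above the controls in TIGK and all below them in HaCaT. For BAMBI it was −0.97 (adjusted p = 0.0053), with all treated libraries below the controls in TIGK and all above them in HaCaT. The calls for ID2 and BAMBI were lost with the replicate block (adjusted p = 0.0117 and 0.0135) and when single libraries were left out, which ended the ID2 call for 7 of the 12 libraries and the BAMBI call for 8, while the SKIL call passed under all 21 alternatives.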

How the results depend on the processing

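Of 1090 alternative values for the 10 genes in 5 comparisons, 1034 kept their direction and their side of the limit, 25 fell short of it, 15 passed it newly and 16 changed sign. The difference of the responses was the comparison that moved most: the 3 genes called became 5 at a limit of 0.05, 1 with the replicate block and 1 to 4 when 1 library was left out. The sign changes all concerned values near 0. The ID1 difference of the responses became 0.0084 with DESeq2, 0.0086 with DESeq2 size factors, 0.0123 with upper quartile scaling, 0.0354 without mitochondrial genes, 0.0441 without a filter, 0.0483 with filterByExpr, and −0.0732 to 0.0617 when 1 library was left out. The ID2 difference between the untreated lines ran from −0.17 to 0.25 when 1 library was left out. The causes were not tested.

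Libraries that share a replicate number did not deviate together, with correlations from −0.12 to 0.03 over 18 pairs and 0 above 0.1. These values show no strong shared deviation, but with few libraries per group they cannot tell whether the numbers pair the samples. With the replicate block, ID2 and BAMBI no longer passed in the difference of the responses, at −1.63 (adjusted p = 0.0117) and −0.96 (adjusted p = 0.0135), and neither did ID4 in HaCaT at 1.18 (adjusted p = 0.0137). The other calls of the 10 genes kept their side. Without a filter on low counts, ID3 passed in TIGK at 0.29 (adjusted p = 0.00218) and in the difference of the responses at −0.42 (adjusted p = 0.00642). In that fit the adjusted p of ID2 was far smaller as well. For the HaCaT response of ID2 it was 1.17e-71 at 2.92, against 2.15e-08 at 2.95 in the main fit. Over all tested genes, the difference of the responses was called for 881 with edgeR, 1426 with DESeq2, 2019 at a limit of 0.05, and 536 (without TIGK H2O2 replicate 2) to 1092 (without HaCaT H2O2 replicate 1) when 1 library was left out. The TIGK response was called for 3850 genes, against 5998 at a limit of 0.05. Of the calls for the difference, 43.7% were higher in TIGK, against 60.1% without mitochondrial genes. Of the calls in HaCaT, 55.3% rose, against 47.2% without mitochondrial genes and 47.5% with upper quartile scaling, and in TIGK 44.1% rose, against 54.3% without a filter. No scaling or filter moved the median of all genes by more than 0.08 on the log2 scale. A fit on the compared groups alone could not be made for the difference of the responses, which needs all 4 groups. Depth limited ID4 in TIGK most, at 13 to 36 reads.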
